A study of Mus musculus with 6 samples.

Results

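The 34 genes described here were taken from a list of postsynaptic scaffolds, synaptic adhesion proteins, CaMKII subunits and AMPA receptor auxiliary subunits, and all 34 were found by gene symbol among the 19505 genes on the array. Each of the 34 was measured by 1 transcript cluster, the set of probes for one gene. Excitatory synapses hold neurotransmitter receptors in place with a layered protein scaffold, the postsynaptic density, and adhesion proteins span the cleft to join it to the axon terminal. The membrane-associated guanylate kinases of the *Dlg* family bind receptors and adhesion proteins, the *Dlgap* proteins link them to the *Shank* proteins, and the *Homer* proteins tie that layer to metabotropic receptors and internal calcium stores. In the rodent hippocampus much of this assembly takes place during the first postnatal weeks, when synapse number climbs steeply.

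Hippocampal RNA of pups at postnatal day 10 was hybridized to 1-colour Clariom S mouse arrays. *LAO1* encodes an L-amino acid oxidase of milk that generates hydrogen peroxide, and every pup in both groups carried the knockout on a C57BL/6Jcl background. The 3 arrays of *LAO1* KO with WT milk came from pups nursed by WT dams and the 3 arrays of *LAO1* KO with KO milk from pups nursed by *LAO1* KO dams, with neonates switched between dams soon after birth. The comparison asks whether hippocampal expression differed between pups nursed by *LAO1* KO dams and by WT dams. Values are the deposited log2 intensities, and fold changes are KO milk minus WT milk on the log2 scale from limma.

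The arrays did not all match their labels. Every pup was labelled male, while the study's methods name both sexes among neonates, and *Uty*, *Kdm5d* and *Eif2s3y*, all on the Y chromosome, had a mean log2 intensity of 9.97 to 10.45 in WT milk replicates 1 and 3 and KO milk replicate 2, and of 3.26 to 3.56 in the other 3 arrays. KO milk replicate 3 also stood apart, with a root mean square distance of 0.448 from the mean of the other 5 arrays over all genes, where the other arrays had 0.269 to 0.329. Hippocampal markers were present in every array, with *Slc17a7*, the glutamate transporter of hippocampal excitatory synapses, at 17.44 to 17.84 and *Prox1*, a factor of dentate granule cells, at 13.44 to 13.74 under WT milk and 13.96 to 14.39 under KO milk. Of 8 markers of hippocampal fields, limma gave *Prox1* alone as higher and 0 lower (unadjusted p under 0.05), with 5 above 0, 3 below and a median of 0.12. Among 6 markers of excitatory neurons, limma gave *Slc17a6* alone as lower at that p, with a fold change of -0.72, and 0 higher. Of these 6, 4 lay above 0 and 2 below, with a median of 0.13. Of 8 myelinating oligodendrocyte markers, limma gave 7 lower with KO milk at that p, where 1.70% of all genes were lower. The 8 had a median log2 fold change of -0.88. No marker named here passed adjustment, as 0 clusters on the array had an adjusted p under 0.05. Choroid plexus markers had a median of -0.89, with 2 of 8 lower, and the groups overlapped for every one of them. KO milk replicates 1, 2 and 3 had medians of -1.49, 0.48 and -1.71, and WT milk replicates 1, 2 and 3 had 0.63, -0.03 and -0.51. Thalamus markers, genes of a neighbouring region, had a median of -0.27, with 9 of 9 below 0 and 3 of 9 lower (*Tcf7l2*, *Rora* and *Rgs16*), from per-array medians of -0.18 to 0.14 under WT milk and -0.35 to -0.18 under KO milk. The part of these markers in the values below was not tested. In tissue RNA, fewer cells of a type and less RNA per cell cannot be told apart.

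No member of the set passed the test for a difference between the milk groups. At an unadjusted p under 0.05, limma gave 0 of 34 members higher and 0 lower, where 1.46% of all genes were higher, 1.70% were lower and 3.16% passed in either direction. An unmoderated test per cluster also gave 0 of 34. Over the whole array, 726 of 22206 clusters had an unadjusted p under 0.05 in limma and 0 an adjusted p under 0.05. In 0 of 34 members did every KO milk array lie on one side of every WT milk array, a separation seen in 8.39% of all genes. The smallest p of an exact permutation test of 3 against 3 arrays is 0.1.

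The fold changes ran from -0.59 for *Lrrtm2* to 0.36 for *Cnih3*, with a median of -0.06 beside 0.0024 over all genes. Below 0 lay 23 of 34 members and 9657 of all 19505 genes. For 27 of 34 members the fold change was smaller in size than the standard deviation within groups, whose median was 0.242 for the members and 0.244 for all genes. The 95% intervals held 0 for all 34. They lay within a 2-fold difference either way for 33 members, *Lrrtm2* being the exception, and within 1.5-fold for 21. The half-width of the interval ran from 0.36 to 0.86 with a median of 0.44, or 1.36-fold. For neuron markers on the same arrays the median was -0.02, and 0 of 10 passed limma at that p.

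**Figure D1:**
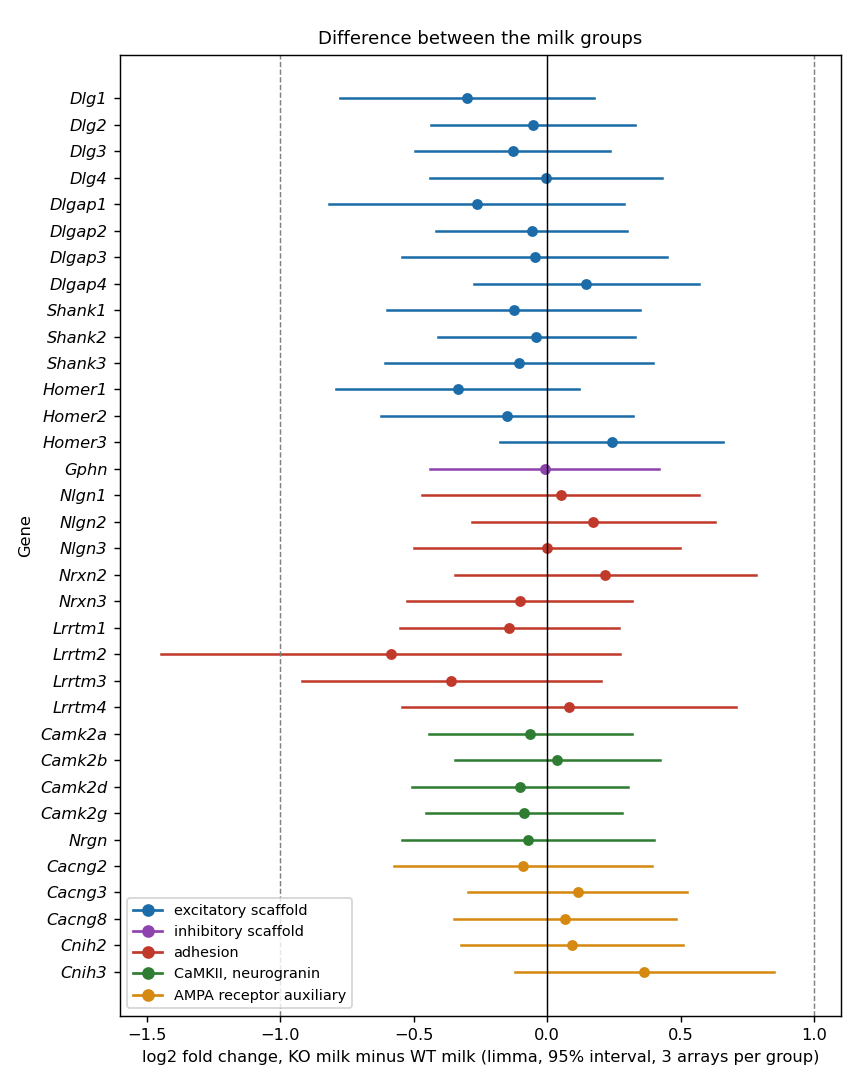
Log2 fold change of each of the 34 genes, KO milk minus WT milk, as points with 95% intervals from limma (3 arrays per group), coloured by role. Every interval crosses 0, and only that of *Lrrtm2* passes the dashed lines at 1 log2 unit.

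Promoter sequences are shown for *Cnih3*, *Homer1* and *Lrrtm3*, 3 of the 4 members with the smallest unadjusted p in limma. That of *Lrrtm2*, the other of the 4, is not shown. Promoters ran from 250 bases before to 50 after a start in the RefSeq table (GRCm38.p6). From it 41 promoters of 26 members were used. The shares below describe these 41 and not all 34 members. Capitals mark the GC box GGGCGG and the cyclic AMP response element core TGACG on either strand. The *Homer1* promoter lies on chr13:93303507-93303806, plus strand, and carries 3 cores and 0 GC boxes. The *Cnih3* promoter lies on chr1:181352378-181352677, plus strand, with 1 GC box, and that of *Lrrtm3* on chr10:64090206-64090505, minus strand, with 0 of either.
Homer1: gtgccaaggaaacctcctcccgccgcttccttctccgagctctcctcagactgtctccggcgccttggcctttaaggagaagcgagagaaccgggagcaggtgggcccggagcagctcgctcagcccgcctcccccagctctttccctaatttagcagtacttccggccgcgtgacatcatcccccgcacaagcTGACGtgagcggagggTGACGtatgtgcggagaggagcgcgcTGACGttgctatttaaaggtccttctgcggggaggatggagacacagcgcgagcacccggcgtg
Cnih3: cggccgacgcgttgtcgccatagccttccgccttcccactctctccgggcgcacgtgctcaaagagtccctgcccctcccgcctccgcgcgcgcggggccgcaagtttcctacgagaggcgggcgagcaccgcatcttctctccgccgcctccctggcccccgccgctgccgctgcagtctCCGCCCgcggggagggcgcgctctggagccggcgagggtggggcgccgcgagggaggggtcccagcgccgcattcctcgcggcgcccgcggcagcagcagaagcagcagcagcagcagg
Lrrtm3: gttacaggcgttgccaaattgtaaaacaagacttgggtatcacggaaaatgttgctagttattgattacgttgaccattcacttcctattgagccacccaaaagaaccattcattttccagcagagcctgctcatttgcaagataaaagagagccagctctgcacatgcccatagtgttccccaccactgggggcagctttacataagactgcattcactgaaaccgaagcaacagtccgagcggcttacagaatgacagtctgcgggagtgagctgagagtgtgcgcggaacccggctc
At least 1 core was present in 5 of the 41 member promoters and in 20.8% of all 32851 promoters. Among the 41, only that of *Homer1* held 3 or more, against 1.03% of all promoters. The other *Homer1* promoter in the table, at chr13:93307784-93308083, held 0 cores. A GC box was present in 17 of 41 and in 35.7% of all, an E-box (CANNTG) in 28 of 41 and in 72.3%, and a TATA box (TATAAA) in 4 of 41 and in 13.6%. The median share of G and C was 55.7% for the 41 member promoters and 52.7% for all promoters. A match describes letters and not a bound site.

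Among the 14 excitatory scaffold genes the median fold change was -0.08, with 2 above 0 and 12 below. *Homer1*, which crosslinks Shank and metabotropic glutamate receptors and also yields a short, activity-induced form that breaks those links, had log2 intensities of 13.75, 13.16 and 13.51 under WT milk against 13.09, 13.36 and 12.96 under KO milk. KO milk replicate 2 lay above WT milk replicate 2, so the groups overlapped. The fold change was -0.34 (standard error 0.21, 95% interval -0.79 to 0.12), the largest in size of the scaffold genes. The cluster gives 1 value for the gene, and which of the long and short forms its probes read was not examined. Without WT milk replicate 2 the value was -0.49, past an unadjusted p of 0.05 in limma but not past adjustment (limma adjusted p = 0.9999). Without WT milk replicate 1, the highest array, it was -0.20.

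*Homer2* and *Homer3* encode long forms of the same scaffold. *Homer2* had a fold change of -0.15, with 10.19 ± 0.37 (SD, n = 3) and 10.04 ± 0.13 (SD, n = 3), and WT milk replicate 2, at 9.76, was the lowest array. *Homer3* read 9.04, 9.29 and 9.45 under WT milk against 9.28, 9.57 and 9.65 under KO milk, a fold change of 0.24 (standard error 0.19). WT milk replicates 2 and 3 lay above the lowest KO milk array. Whether the *Homer* genes differed in response was not tested.

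*Dlg4*, which encodes PSD-95, the most studied scaffold of the excitatory synapse, had nearly equal group means, 16.75 ± 0.19 (SD, n = 3) and 16.75 ± 0.26 (SD, n = 3). It read 16.84, 16.53 and 16.88 under WT milk against 16.66, 16.55 and 17.03 under KO milk, a fold change of -0.0047 (standard error 0.20, 95% interval -0.44 to 0.43). The lowest value came from a WT milk array and the highest from a KO milk array. *Dlg3*, its relative that predominates at immature synapses, read 13.24, 13.07 and 13.16 against 12.94, 13.09 and 13.04. Only KO milk replicate 2 reached into the WT milk range, and the fold change was -0.13 (standard error 0.17). *Dlg2*, or PSD-93, had 14.13 ± 0.11 (SD, n = 3) and 14.07 ± 0.14 (SD, n = 3), a fold change of -0.05. *Dlg1*, which also traffics AMPA receptors, had 9.58 ± 0.33 (SD, n = 3) and 9.28 ± 0.24 (SD, n = 3), a fold change of -0.30 that was -0.12 without WT milk replicate 1.

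The *Dlgap* genes encode the proteins that join PSD-95 to Shank. *Dlgap1* read 15.19, 14.64 and 14.85 under WT milk against 14.93, 14.86 and 14.09 under KO milk, a fold change of -0.26. KO milk replicate 3 alone lay below the WT milk range, and the fold change without it was 0.0033. *Dlgap2* was the tightest of the set, at 10.60, 10.66 and 10.64 against 10.61, 10.58 and 10.53, with a fold change of -0.06 (standard error 0.16). A single KO milk array, replicate 1, overlapped the WT milk range. *Dlgap3* had 11.12 ± 0.30 (SD, n = 3) and 11.07 ± 0.34 (SD, n = 3). *Dlgap4* had 12.06 ± 0.07 (SD, n = 3) and 12.20 ± 0.28 (SD, n = 3), with KO milk replicate 3 the highest array at 12.51.

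The *Shank* genes encode the deep layer of the density. *Shank1* read 16.88, 16.52 and 16.67 under WT milk against 16.26, 16.47 and 16.96 under KO milk. KO milk replicates 1 and 2 lay below every WT milk array and replicate 3 above them, so the fold change of -0.12 averaged values on both sides. *Shank3* showed the same order, at 10.73, 10.58 and 10.83 against 10.28, 10.44 and 11.10, with a fold change of -0.11 that was -0.35 without KO milk replicate 3. *Shank2* had 12.67 ± 0.05 (SD, n = 3) and 12.63 ± 0.12 (SD, n = 3), a fold change of -0.04 (standard error 0.17).

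*Gphn* encodes gephyrin, which anchors glycine and GABA-A receptors at inhibitory synapses. Its log2 intensities were 13.0025, 12.61 and 12.75 under WT milk against 13.04, 12.69 and 12.60 under KO milk. The groups spanned almost the same range, and the fold change was -0.01 (standard error 0.19, 95% interval -0.44 to 0.42).

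Among the 9 adhesion genes the median fold change was -0.0021, with 4 above 0 and 5 below. *Lrrtm2*, a leucine-rich repeat protein of the postsynaptic membrane that binds neurexins, had the largest fold change in size of all 34 genes and also the widest interval, -0.59 (standard error 0.39, 95% interval -1.45 to 0.27). It read 13.30, 12.81 and 12.92 under WT milk against 13.10, 12.86 and 11.31 under KO milk. KO milk replicates 1 and 2 lay inside the WT milk range and replicate 3 lay far below, with a deviation of -1.69 from the mean of the other 5 arrays. Without that array the fold change was -0.03. Without KO milk replicate 1 it was -0.93, past an unadjusted p of 0.05 but not past adjustment (limma adjusted p = 0.992).

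*Lrrtm3*, a relative of *Lrrtm2*, read 11.27, 10.77 and 10.58 under WT milk against 10.99, 10.35 and 10.19 under KO milk. KO milk replicate 1 lay above 2 of the 3 WT milk arrays. The fold change was -0.36 (standard error 0.25), or -0.60 without KO milk replicate 1, where it passed an unadjusted p of 0.05 but not adjustment (limma adjusted p = 0.992). Leaving out WT milk replicate 1 gave -0.16, and leaving out KO milk replicate 3 gave -0.20. *Lrrtm1* had 9.70 ± 0.05 (SD, n = 3) and 9.56 ± 0.26 (SD, n = 3), with KO milk replicate 3 the highest array. *Lrrtm4*, which also binds heparan sulfate proteoglycans, was the most variable with WT milk, at 14.28, 13.24 and 13.43 against 13.96, 13.93 and 13.32, a fold change of 0.08. In the RefSeq gene table *Lrrtm1*, *Lrrtm2* and *Lrrtm3* lie within the bounds of the alpha-catenin genes *Ctnna2*, *Ctnna1* and *Ctnna3*, whose own fold changes were 0.0079, -0.06 and -0.05. *Ctnna3* read only 5.72 to 6.07, below the array medians of 6.89 to 6.92 over all clusters.

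The neuroligins are postsynaptic partners of the neurexins, *Nlgn1* mainly at excitatory and *Nlgn2* at inhibitory synapses, and *Nlgn3* at both. *Nlgn3* had the fold change nearest 0 of all 34 genes, -0.0021 (standard error 0.23), from 14.25, 14.16 and 13.89 under WT milk against 13.97, 13.77 and 14.56 under KO milk. Here KO milk replicate 3 was the highest and replicate 2 the lowest of the 6 arrays. *Nlgn2* read 13.50, 13.65 and 13.49 against 13.65, 13.40 and 14.11, a fold change of 0.17 that was -0.02 without KO milk replicate 3. *Nlgn1* read 13.69, 13.59 and 13.45 against 14.0046, 13.77 and 13.10, a fold change of 0.05 that was 0.31 without the same array. KO milk replicate 3 was thus the lowest array for *Nlgn1* and the highest for the other neuroligins.

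The neurexins *Nrxn2* and *Nrxn3* act in the axon terminal as the partners of neuroligins and LRRTM proteins. *Nrxn2* read 11.18, 10.91 and 10.94 under WT milk against 11.12, 10.75 and 11.82 under KO milk. Only KO milk replicate 3 lay above the WT milk range, and the fold change of 0.22 (standard error 0.26) was -0.08 without it. *Nrxn3* had 12.88 ± 0.23 (SD, n = 3) and 12.77 ± 0.18 (SD, n = 3), a fold change of -0.10.

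CaMKII is the calcium-dependent kinase of the postsynaptic density, built from alpha and beta subunits in neurons and from delta and gamma subunits more widely, and neurogranin, encoded by *Nrgn*, holds calmodulin near the membrane. These 5 genes had a median fold change of -0.07, from -0.10 to 0.04. *Camk2a* read 18.93, 18.71 and 18.76 under WT milk against 18.62, 18.71 and 18.87 under KO milk, a fold change of -0.06 (standard error 0.17, 95% interval -0.44 to 0.32). *Camk2b* read 17.68, 17.58 and 17.62 against 17.59, 17.53 and 17.87, a fold change of 0.04 (standard error 0.17). For both neuronal subunits the KO milk arrays lay on both sides of the WT milk mean.

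*Camk2d* read 13.28, 13.61 and 13.24 against 13.21, 13.18 and 13.43, a fold change of -0.10 (standard error 0.18). WT milk replicate 2 was its highest array and KO milk replicate 2 its lowest. *Camk2g* read 12.63, 12.41 and 12.46 against 12.39, 12.40 and 12.45, a fold change of -0.09. *Nrgn* read 17.02, 16.29 and 16.83 under WT milk against 16.70, 16.73 and 16.49 under KO milk. All 3 KO milk arrays lay within the range of the WT milk arrays, and the fold change was -0.07 (standard error 0.21).

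The auxiliary subunits of AMPA receptors govern how the receptors reach the surface and how fast they close. Of the 5, 4 had fold changes above 0 and the median was 0.09. *Cnih3*, a cornichon protein, had the largest at 0.36 (standard error 0.22, 95% interval -0.12 to 0.85). It read 11.84, 11.56 and 12.35 under WT milk against 12.13, 12.38 and 12.32 under KO milk. WT milk replicate 3 lay above 2 of the KO milk arrays, and without it the fold change was 0.58, past an unadjusted p of 0.05 but not past adjustment (limma adjusted p = 0.9999). Without WT milk replicate 2, the lowest array, it was 0.19. *Cnih2*, its relative, had 16.27 ± 0.15 (SD, n = 3) and 16.37 ± 0.23 (SD, n = 3).

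The members of the *Cacng* family encode the transmembrane AMPA receptor regulatory proteins. *Cacng8*, the form enriched in the hippocampus, read 12.24, 11.83 and 12.24 under WT milk against 12.25, 12.0023 and 12.25 under KO milk, a fold change of 0.07 (standard error 0.19). WT milk replicate 2 was the lowest array and the ranges overlapped. *Cacng2*, or stargazin, read 13.59, 13.78 and 13.76 against 13.75, 13.95 and 13.16. KO milk replicate 3 was the lowest array and replicate 2 the highest, and the fold change of -0.09 was 0.14 without replicate 3. *Cacng3* had 13.96 ± 0.22 (SD, n = 3) and 14.08 ± 0.15 (SD, n = 3).

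**Figure D2:**
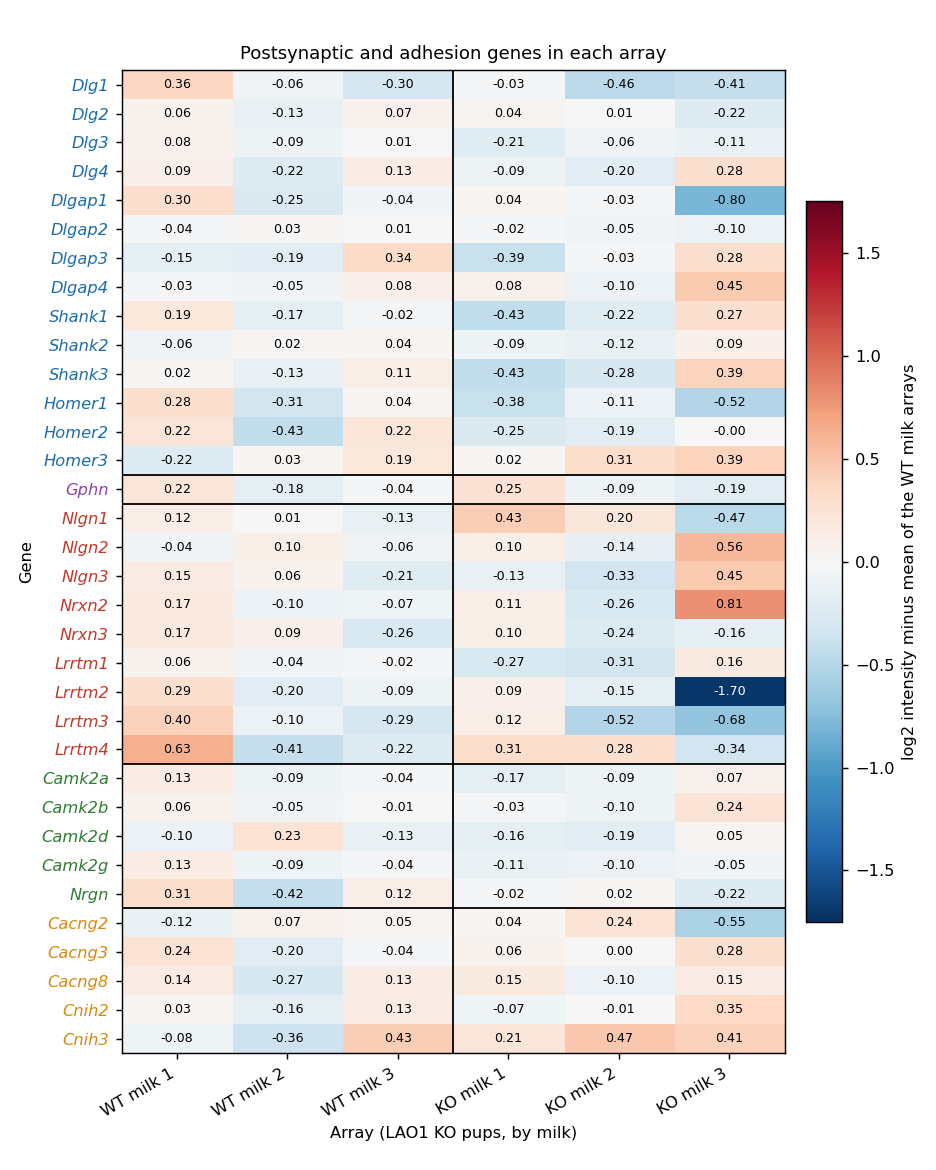
Log2 intensity of each gene in each array minus the mean of its WT milk arrays, with rows grouped by role (excitatory scaffold, inhibitory scaffold, adhesion, CaMKII and neurogranin, AMPA receptor auxiliary) and columns by array. The strongest colours lie in the column of KO milk replicate 3, in both directions, lowest for *Lrrtm2* and highest for *Nrxn2*.

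Some members replace or balance one another as synapses mature, and 5 such pairs, chosen after the values were seen, were compared as the log2 difference between the pair within each array. Since the probes of a pair differ, the size of a difference within an array is not a ratio of transcript levels, and only its change between the groups can be read. *Camk2a* minus *Camk2b* was lower by 0.10 on average with KO milk, with arrays of 1.25, 1.13 and 1.14 against 1.03, 1.18 and 0.998 (exact two-sided permutation test, p = 0.3). *Dlg4* minus *Dlg3* was 3.61, 3.46 and 3.72 against 3.71, 3.46 and 3.99, a change of 0.12 (exact permutation p = 0.7). *Gphn* minus *Dlg4*, an inhibitory against an excitatory scaffold, changed by -0.0054 (exact permutation p = 0.9). *Nlgn2* minus *Nlgn1* was -0.20, 0.06 and 0.04 against -0.36, -0.37 and 1.0039, a change of 0.12 (exact permutation p = 1), and *Cacng8* minus *Cacng2* changed by 0.16 (exact permutation p = 0.6). After Benjamini-Hochberg adjustment over the 5 pairs the p of each was 1. The smallest p that this test can give with 3 against 3 arrays is 0.1. No pair could therefore pass 0.05, and the test cannot decide whether a pair changed. For every pair the ranges of the groups overlapped.

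**Figure D3:**
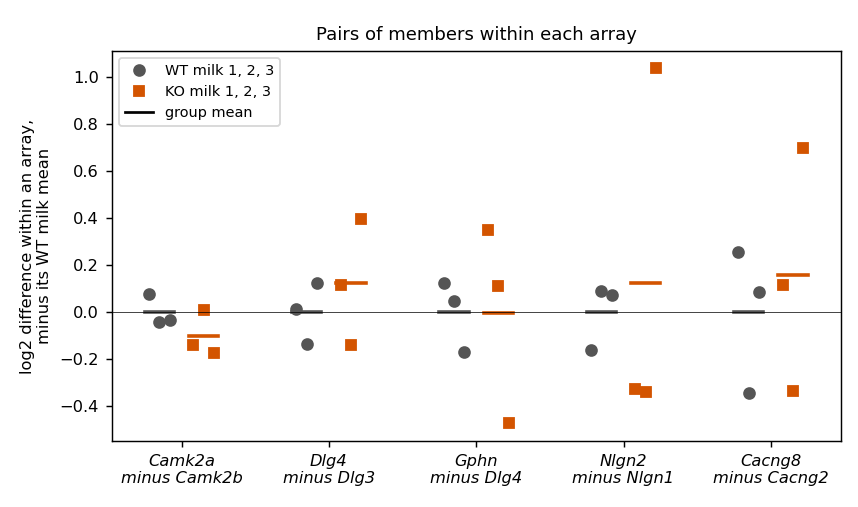
Log2 difference between 2 members within each array, minus the mean of the WT milk arrays, for 5 pairs. Circles are WT milk and squares KO milk arrays (3 each), and bars are group means. For *Nlgn2* minus *Nlgn1* KO milk replicate 3 lies far above the other 5 arrays.

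KO milk replicate 3 held the lowest or the highest value of the 6 arrays for 22 of 34 members, 9 at the lowest and 13 at the highest, and did so for 49.7% of all genes. Its root mean square distance from the mean of the other 5 arrays was 0.487 over the members, where the other arrays had 0.182 to 0.323. The members farthest below the other arrays there were *Lrrtm2*, *Dlgap1*, *Lrrtm3*, *Cacng2* and *Nlgn1*, with deviations from -1.69 to -0.60, and those farthest above were *Nrxn2*, *Nlgn2*, *Nlgn3* and *Shank3*, from 0.84 to 0.53. WT milk replicate 1 held the highest value for 11 of 34 members, *Lrrtm4* and *Homer1* among them, and for 17.6% of all genes.

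The 15 members below the other arrays in KO milk replicate 3 had a median gene length of 209.9 kb and the 19 above a median of 67.2 kb in the RefSeq table, while *Lrrtm2*, the lowest of all, is a gene of 6.0 kb. Over the 34 members, Spearman's rho between gene length and the deviation in that array was -0.46, and over the 5985 genes at least as bright as the dimmest member it was -0.10. These are descriptions across genes of 1 array, which are not independent replicates. Besides the members given above with their values without that array, the fold change without it was -0.32 for *Shank1*, -0.23 for *Nlgn3*, 0.29 for *Lrrtm4*, -0.21 for *Dlgap3* and -0.29 for *Lrrtm1*. It was -0.15 for *Dlg4* and -0.0075 for *Dlgap4*. Over all members without that array, 0 of 34 passed an unadjusted p of 0.05 from limma, and the median fold change was -0.07.

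**Figure D4:**
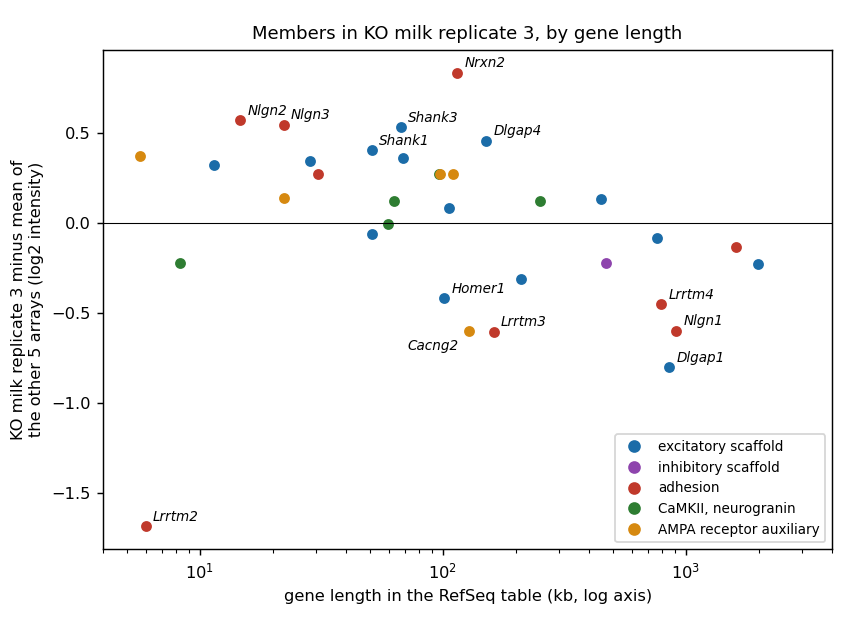
Value of each member in KO milk replicate 3 minus the mean of the other 5 arrays (log2 intensity) against its gene length in the RefSeq table (kb, log axis), coloured by role, with names given from 0.4 in size. Among long genes, *Dlgap1*, *Nlgn1* and *Lrrtm4* lie from -0.80 to -0.45, *Dlg2* and *Nrxn3* at -0.23 and -0.13, and *Shank2* at 0.13. The short gene *Lrrtm2* lies lowest.

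Y-linked signal differed between arrays within both groups. With that signal as a block in limma, the median fold change of the members was -0.04 and 0 of 34 passed. Within the 3 arrays of high Y-linked signal, 2 of WT milk and 1 of KO milk, the median was -0.14. Within the 3 arrays of low signal, 1 of WT milk and 2 of KO milk, it was 0.10. Each value rests on a single array of one group and is given as a description, with no test.

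Of 95 further postsynaptic, adhesion and AMPA receptor auxiliary genes 86 were measured. At an unadjusted p under 0.05 limma gave 2 lower and 0 higher, leaving 84, where 1.70% of all genes were lower and 1.46% higher. The median fold change of the 86 was 0.03. In 6 of the 86 the groups did not overlap, beside 8.39% of all genes. The 2 lower genes belonged to the 37 measured adhesion genes, and neither passed adjustment. *Slitrk6*, a leucine-rich repeat protein of neurons, read 6.89, 8.14 and 7.38 under WT milk against 6.86, 6.90 and 6.29 under KO milk, a fold change of -0.78 (standard error 0.30). Its groups overlapped at WT milk replicate 1. The median over all clusters was 6.89 to 6.92 in the arrays. WT milk replicates 2 and 3 lay above it for *Slitrk6*, and the other arrays lay near or below it. *Il1rap*, an interleukin receptor subunit that also binds presynaptic receptor phosphatases, read 10.30, 9.78 and 9.78 against 9.47, 9.77 and 9.04, a fold change of -0.53 (standard error 0.23) and groups that did not overlap. None of 29 other scaffold genes, 6 other inhibitory synapse genes and 14 other AMPA receptor auxiliary genes passed limma at that p.

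**Figure D5:**
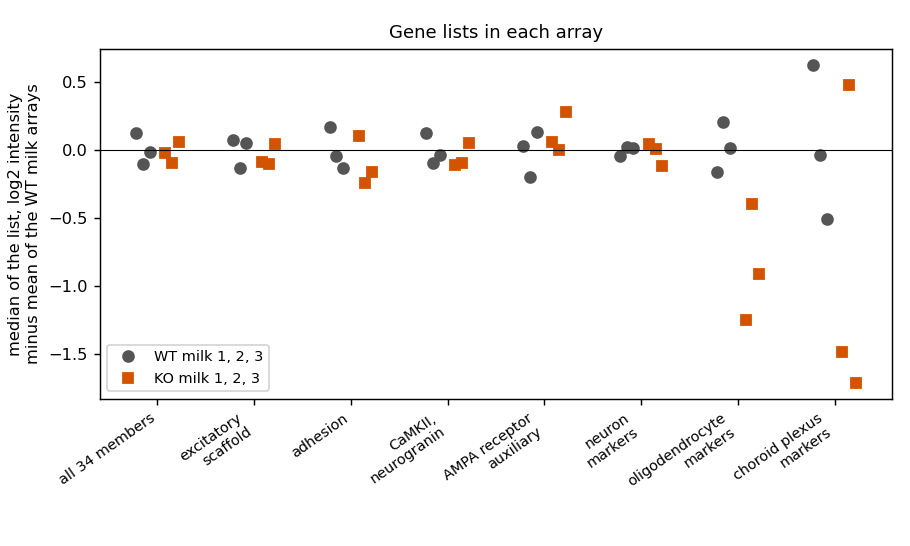
Median of each gene list in each array, as log2 intensity minus the mean of the WT milk arrays (circles WT milk, squares KO milk, 3 each). The lists of members and of neuron markers stay within 0.3 of 0 in every array. In the KO milk arrays oligodendrocyte markers lie between -1.25 and -0.40 and choroid plexus markers between -1.71 and 0.48. In the WT milk arrays they lie between -0.16 and 0.21 and between -0.51 and 0.63.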

How the data were processed

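The authors deposited 1 log2 intensity per transcript cluster and array, which Transcriptome Analysis Console produced by RMA, a method that corrects background, equalizes the arrays and merges probes, per the labels and methods. The genome build and annotation version are not given in the sources used here. The 6 columns were mapped by accession, and groups came from the mother genotype. The labels name no individual dam, litter or cage. Pups of 1 dam would not be replicates of the milk, and milk cannot be told apart from dam or litter. The p-values measure the spread between these 6 samples, and their number limits the precision.

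Each symbol was represented by its brightest cluster (19505 genes from 22206 clusters, 2634 without a symbol). limma 3.58.1 in R 4.3.3 (lmFit, eBayes, no covariate or intensity filter) was fitted to all clusters, with Benjamini-Hochberg adjustment over all, and was tested on simulated data. Members and lists were chosen with earlier results of these data known. Every member is named, with values per array at least for the largest and smallest fold change of each role, and genes of other lists only at an unadjusted p under 0.05 or as defining markers. Alternatives were other normalizations, a filter at a mean of 5, array weights, a trended robust prior, an unmoderated test, the replicate number or Y-linked signal (above or below 7) as a block, all clusters of a gene, and each array left out. Fits within arrays of high or low Y-linked signal were added after seeing the data. Gene lengths and promoters came from RefSeq GRCm38.p6.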

Additional observations from a re-analysis of the deposited data

How the results depend on the processing

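Leaving out 1 array at a time, 0 to 2 of the 34 members passed an unadjusted p of 0.05 in limma: 1 without WT milk replicate 2 (*Homer1*), 1 without WT milk replicate 3 (*Cnih3*) and 2 without KO milk replicate 1 (*Lrrtm2* and *Lrrtm3*), with 0 in the other settings that keep at least 2 arrays per group. The fold changes of these genes ran from -0.49 to -0.20 (*Homer1*), 0.19 to 0.58 (*Cnih3*), -0.93 to -0.03 (*Lrrtm2*) and -0.60 to -0.16 (*Lrrtm3*) with an array left out. The adjusted p over all clusters called 0 to 1 clusters when an array was left out, the 1 without KO milk replicate 2, and 0 otherwise. The member median ran from -0.10 to -0.02 with an array left out, and was 0.10 within the arrays of low Y-linked signal, 1 of WT milk against 2 of KO milk, which is no test. With each array shifted to a common median, 1 member had groups that did not overlap (*Dlgap2*). As deposited it was 0 members, beside 8.39% of all genes. Of the 34 members 13 kept the sign of their fold change in all 16 settings and 21 did not. The filter, the robust prior, the unmoderated test, the replicate block and all clusters of a gene cannot alter a member's fold change. Only the remaining settings could change a sign. Same-numbered arrays did not deviate together (correlations of 0.025, -0.127 and 0.016). With the replicate number as a block 0 members passed, and the median stayed at -0.06, which a block cannot move in this balanced design. Half-widths of the 95% interval, from 0.36 to 0.86 over the members, give the precision that 3 arrays per group allowed.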
